A study of Mus musculus with 7 samples.

Results

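The smooth muscle and myofibroblast contractile genes were followed in the hearts of mice 4 days after myocardial infarction (MI). They were 10 genes chosen by name, Acta2, Tagln, Myh11, Cnn1, Actg2, Myl9, Cald1, Lmod1, Smtn and Tpm2, and all 10 were found among the 56980 genes of the expression table. All mice were male C57BL/6J, an inbred laboratory strain, labelled WT, obtained at 8 weeks of age and given 1 week to settle. In the MI group (n = 3) the left coronary artery was ligated, and in the sham-operated group (n = 4) the same surgery was done without ligation. RNA was prepared from myocardial tissue, which the study calls ischemic in the MI mice. The sources used here do not divide it into infarct and border, and do not say whether hearts were pooled. Expression was given as FPKM, the fragments counted on a gene scaled to its length and to the size of the library.

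Smooth muscle shortens when myosin, built from the heavy chain Myh11 and light chains such as Myl9, pulls on filaments of the actins Acta2 and Actg2. Tropomyosin, caldesmon, calponin, transgelin, leiomodin and smoothelin bind those filaments and set their stability or their access to myosin. In an uninjured heart these proteins belong mainly to the walls of coronary vessels. After infarction, fibroblasts can turn into myofibroblasts, which take up part of the same set, with Acta2 as the customary marker, while Myh11 is held to be closer to smooth muscle proper. Many of these genes are switched on through serum response factor (Srf), which binds a DNA element called the CArG box together with its partners myocardin (Myocd) and the myocardin-related factors (Mrtfa, Mrtfb).

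The CArG boxes of Acta2 and Myl9 are printed because no other contractile gene with a promoter in the RefSeq table (GRCm38.p6) held one with at most 1 mismatch in the 250 bases before its start. Each is given on the strand of its gene with 10 bases on either side and the box in capitals. The Acta2 boxes begin 84 and 34 bases before the start of transcription, at chr19:34255448-34255457 and chr19:34255398-34255407 on the minus strand, and each differs from the element at 1 position of its core.
Acta2, distal box: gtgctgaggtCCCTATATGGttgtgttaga
Acta2, proximal box: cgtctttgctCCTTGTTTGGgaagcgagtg
The Myl9 boxes begin 161 and 99 bases before the start, at chr2:156775303-156775312 and chr2:156775365-156775374 on the plus strand, the distal box exact and the proximal box with 1 mismatch.
Myl9, distal box: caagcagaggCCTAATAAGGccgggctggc
Myl9, proximal box: cattcttctgCCTTGTAAGGccgggcggcc
Both Acta2 boxes lie inside the first exon of an Acta2 transcript of the GENCODE M21 annotation, which begins further upstream than the RefSeq start. The table held 8 promoters of 7 contractile genes, with 2 for Cald1, and none was printed for Tagln, Myh11 or Actg2. A CArG box with at most 1 mismatch occurred in 2 of the 8, against 8.59% of all 32851 mouse promoters of the same length. A pair of such boxes, which both genes had, occurred in 0.67% of all promoters, and an exact box, which Myl9 alone of these had, in 1.47%. The MCAT element bound by TEAD factors, CATTCC on either strand, occurred in 4 of the 8 (Acta2, Lmod1, Smtn and the upstream promoter of Cald1), against 12.6% of all. These are matches of letters, and whether a factor was bound was not measured.

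The libraries held 19977714 to 23473547 fragments in the sham-operated mice and 21781021 to 23610870 in the MI mice. MI replicate 2 stood apart from the other MI mice in its whole expression profile. Across all tested genes its log2 values correlated with those of the sham-operated mice at a Pearson r of 0.984 to 0.987, whereas MI replicate 1 gave 0.878 to 0.881 and MI replicate 3 gave 0.903 to 0.906. Its mitochondrial share of fragments, 28.2%, lay near the sham range of 26.5% to 27.4%, while replicates 1 and 3 had 13.6% and 14.9%. The fold changes of the contractile genes and the counts over lists are therefore given with and without that mouse, and the exact tests with all 7 mice. Without it the MI group is replicates 1 and 3 alone. It is left out for its likeness to the sham-operated mice, so small p-values without it follow in part from that choice. On the log2(FPKM + 1) scale, the median of all log2 fold changes was 0.21, and 0.33 without MI replicate 2. The tissue carried its defining markers, since all 10 cardiomyocyte genes examined were expressed in every mouse.

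In the sham-operated heart the 10 genes covered a wide range of levels per length. Acta2 was highest at 62.9 ± 11.5 FPKM (SD, n = 4), followed by Smtn at 39.2 ± 1.36, Myl9 at 11.6 ± 0.535 and Tagln at 9.56 ± 0.44. Myh11 stood at 5.98 ± 0.753, Tpm2 at 3.22 ± 0.593, Cald1 at 2.40 ± 0.087 and Lmod1 at 1.06 ± 0.092. Cnn1, at 0.535 ± 0.0224, and Actg2, at 0.235 ± 0.0391, were lowest. No gene's range over the 4 mice overlapped that of the next in the order, so the order held in each sham-operated mouse. In the MI mice Tagln passed Smtn in the mean, but the ranges of all neighbours overlapped except those of Myl9 and Tpm2.

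After infarction the contractile genes differed in their mean change. Whether they changed by different amounts was not settled by the comparison with Myh11 within each mouse, given below. Tagln, Cnn1, Actg2, Myl9, Cald1, Tpm2 and Acta2 were 2.25 to 11.1 times their sham mean when MI replicates 1 and 3 were averaged, and lay close to or within the sham range in MI replicate 2. Lmod1 was 1.57 times its sham mean in that average, Myh11 1.06 times and Smtn 0.802 times. Of the 8 genes that passed a filter on low values (1 FPKM or more in no fewer than 3 mice), 4 were higher past an unadjusted p of 0.05 and a log2 fold change of 0.5 with all 3 MI mice, namely Tagln, Myl9, Cald1 and Tpm2, against 17.8% of the 11431 genes tested. None was lower past the same lines, against 4.80% of all genes. At a limma p of under 0.05 after Benjamini-Hochberg adjustment, 0 of the 8 were called, against 0.0262% of all genes, which was 3 genes, and 4496 of all genes had an unadjusted p under 0.05. The median log2 fold change of the 8 was 0.77, against 0.21 over all genes. In bulk tissue, more or fewer cells of a type and more or less RNA per cell cannot be told apart.

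**Figure D1:**
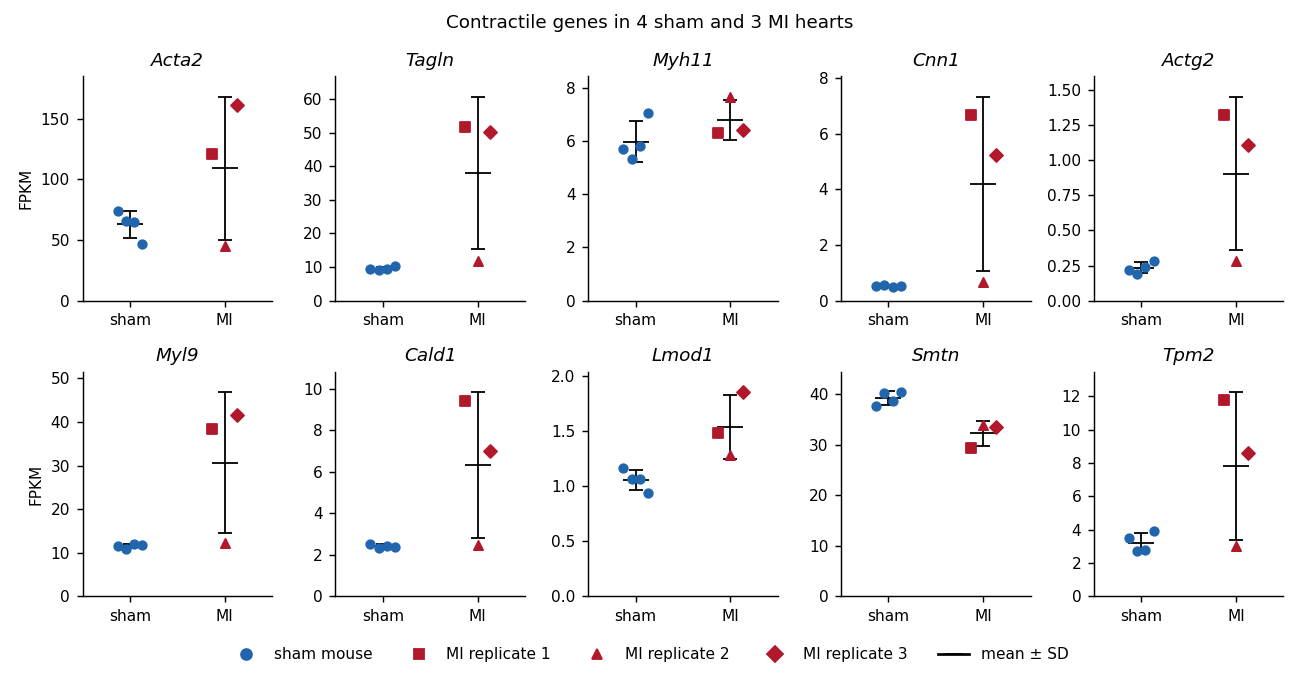
FPKM (vertical axes, each from 0) of the 10 contractile genes in each sham-operated mouse (circles) and each MI mouse (square, triangle and diamond for replicates 1, 2 and 3), with the mean and SD of each group. MI replicates 1 and 3 lie far above the sham-operated mice for Tagln, Cnn1, Actg2, Myl9, Cald1 and Tpm2, MI replicate 2 lies near them, and Smtn is below them in all 3 MI mice on this scale but not after TPM rescaling.

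Without MI replicate 2 the same fit called 6 of the 8 genes higher at an adjusted p under 0.05, against 57.0% of all genes, and 1 lower, Smtn, against 14.7%. Myh11 was the gene not called. The median log2 fold change of the 8 was then 1.28, against 0.33 for all genes.

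Tagln, which encodes transgelin (SM22), an actin-binding protein of smooth muscle cells, had the largest log2 fold change among the 8 contractile genes in the filtered fit. Its level was 9.35, 9.21, 9.48 and 10.2 FPKM in the sham-operated mice and 51.8, 11.8 and 50.3 FPKM in MI replicates 1, 2 and 3. All MI mice were above all sham-operated mice, and replicate 2 only narrowly. The log2 fold change was 1.63 (SE 0.47, limma adjusted p = 0.108), and 2.30 (SE 0.06, adjusted p = 8.58e-07) without MI replicate 2. With all 7 mice, 98.4% of the genes tested had a lower log2 fold change. An antisense transcript, Gm48529, shares 1241 exonic bases with Tagln and was listed at a mean of 0.634 FPKM, and since use of the strand in counting is not given in the sources used here, its reads could not be separated from those of Tagln. The same holds for Pcsk7 on the opposite strand, which shares 108 exonic bases with Tagln and had a mean of 2.35 FPKM.

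Cnn1, calponin 1, which binds actin and damps myosin's activity, had the largest ratio of all 10. It was at 0.542, 0.560, 0.507 and 0.531 FPKM in the sham-operated mice and at 6.67, 0.685 and 5.25 FPKM in MI replicates 1, 2 and 3. The MI mice were all above the sham-operated mice, replicate 1 by a factor of 12.5 over the sham mean and replicate 2 by 1.28. Because only 2 mice reached 1 FPKM, Cnn1 did not enter the filtered fit. Without the filter its log2 fold change was 1.49 (SE 0.50, limma adjusted p = 0.188), and 2.17 (SE 0.09, adjusted p = 5.65e-05) when MI replicate 2 was also left out, a fit in which 36.2% of 30076 genes were called higher. The sham values rested on 41 to 47 fragments, and MI replicates 1 and 3 had 562 and 479.

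Among the actins, Acta2 (smooth muscle α-actin) was abundant and variable, and Actg2 (the γ-actin of visceral smooth muscle) was scarce. Acta2 was at 74.0, 65.4, 65.2 and 46.8 FPKM in the sham-operated mice and at 120.7, 45.4 and 161.6 FPKM in MI replicates 1, 2 and 3. The groups overlapped, because the lowest value of all 7 mice was that of MI replicate 2, and the highest belonged to MI replicate 3. Its log2 fold change was 0.63 (SE 0.41, limma adjusted p = 0.257), and 1.16 (SE 0.19, adjusted p = 0.00147) without MI replicate 2, but 0.46 without MI replicate 1 and 0.25 without MI replicate 3. Acta1, the skeletal muscle actin, was also lowest in sham replicate 4 (74.4 FPKM) and MI replicate 2 (182.7 FPKM), and reached 251.7 to 341.8 FPKM in the other sham-operated mice. Of the 2146 windows of 50 bases in Acta2 transcripts, 7 also occurred in Actg1, so little of Acta2 is shared letter for letter with another actin.

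Actg2 was at 0.220, 0.193, 0.243 and 0.285 FPKM in the sham-operated mice and at 1.32, 0.285 and 1.11 FPKM in MI replicates 1, 2 and 3. MI replicate 2 equalled the highest sham-operated mouse to 3 digits and was above it only in further decimals, with 17 fragments against 15. The sham values rested on 11 to 15 fragments, and MI replicates 1 and 3 had 76 and 69. Without the filter, the log2 fold change was 0.58 (SE 0.20, limma adjusted p = 0.188), and 0.84 (SE 0.07, adjusted p = 0.000304) without MI replicate 2.

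Of the myosin subunits, Myl9, the regulatory light chain whose phosphorylation starts contraction, was at 11.6, 10.8, 12.0 and 11.8 FPKM in the sham-operated mice and at 38.3, 12.1 and 41.6 FPKM in MI replicates 1, 2 and 3. Replicates 1 and 3 were more than 3 times the sham mean, and replicate 2 barely above the highest sham-operated mouse, which after TPM rescaling it no longer exceeded. The log2 fold change was 1.16 (SE 0.39, limma adjusted p = 0.108), and 1.70 (SE 0.07, adjusted p = 3.92e-06) without MI replicate 2.

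Myh11, the smooth muscle myosin heavy chain, was at 5.69, 5.34, 5.82 and 7.07 FPKM in the sham-operated mice and at 6.30, 7.66 and 6.42 FPKM in MI replicates 1, 2 and 3. The groups overlapped and the highest value was that of MI replicate 2, the mouse in which the other genes were least changed. The log2 fold change was 0.16 (SE 0.12, limma adjusted p = 0.309), below the median gene, and it turned to -0.05 when mice were scaled by their median log-ratio and to -0.11 after quantile normalization, but was 0.36 after TPM rescaling. Without MI replicate 2 it was 0.08 (adjusted p = 0.486). Each value rested on 1019 to 1524 fragments.

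Of the filament-binding genes, Cald1 and Tpm2 followed the pattern of Tagln. Cald1, caldesmon, which holds back the myosin motor on the thin filament, was at 2.51, 2.30, 2.41 and 2.38 FPKM in the sham-operated mice and at 9.41, 2.48 and 7.01 FPKM in MI replicates 1, 2 and 3. The groups overlapped only because MI replicate 2 fell short of sham replicate 1. Its log2 fold change was 0.96 (SE 0.34, limma adjusted p = 0.109), and 1.43 (SE 0.10, adjusted p = 3.69e-05) without MI replicate 2. It was 0.63 without MI replicate 1 and 0.82 without MI replicate 3.

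Tpm2, β-tropomyosin, a coiled-coil protein lying along the actin filament, was at 3.47, 2.71, 2.76 and 3.94 FPKM in the sham-operated mice and at 11.8, 3.03 and 8.61 FPKM in MI replicates 1, 2 and 3. MI replicate 2 lay inside the sham range. The log2 fold change was 0.92 (SE 0.37, limma adjusted p = 0.117), and 1.40 (SE 0.16, adjusted p = 0.000231) without MI replicate 2. It was 0.57 without MI replicate 1 and 0.78 without MI replicate 3.

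Lmod1 and Smtn differed less between the groups, without overlap on the FPKM scale. Lmod1, leiomodin 1, which nucleates actin filaments in smooth muscle, was at 1.16, 1.06, 1.06 and 0.938 FPKM in the sham-operated mice and at 1.48, 1.28 and 1.85 FPKM in MI replicates 1, 2 and 3. Every MI mouse was higher, though not after median log-ratio scaling, by a log2 fold change of 0.30 (SE 0.10, limma adjusted p = 0.108), which exceeded that of the median gene by 0.09, and by 0.37 (adjusted p = 0.00712) without MI replicate 2. The values rested on 74 to 172 fragments.

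Smtn, smoothelin, a cytoskeletal protein of contractile smooth muscle, was at 37.6, 40.3, 38.6 and 40.4 FPKM in the sham-operated mice and at 29.4, 33.9 and 33.5 FPKM in MI replicates 1, 2 and 3. On the FPKM scale it was below the sham range in all 3 MI mice, replicate 2 included, but after rescaling to TPM the groups overlapped, with MI replicate 3 at 86.8 TPM against 79.0 to 85.2 TPM in the sham-operated mice. Its log2 fold change was -0.27 (SE 0.09, limma adjusted p = 0.108), and -0.31 (SE 0.07, adjusted p = 0.00619) without MI replicate 2, and shrank to -0.08 after TPM rescaling. Smtn shares 714 exonic bases with Gm11946 on the opposite strand, which was listed at a mean of 0.0674 FPKM.

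Each gene was also compared between the groups by an exact two-sided permutation test of mean log2(FPKM + 1), which cannot give less than 0.0571 with 3 mice against 4. Tagln, Cnn1, Actg2, Myl9, Lmod1 and Smtn reached that smallest exact p. The exact p was 0.114 for Cald1, 0.171 for Tpm2, 0.229 for Myh11 and 0.286 for Acta2. Of the 8 genes in the filtered fit, 3 were higher in every MI mouse than in every sham-operated mouse, against 16.1% of all genes, and 1 was lower in every MI mouse, against 9%. Tagln and Cnn1 were higher in every MI mouse under TPM and median log-ratio scaling too. So was Actg2, but there MI replicate 2 and sham replicate 4 were nearly tied, at 0.308 against 0.307 under median log-ratio scaling. The separation of Myl9 and Smtn was lost under TPM, where Myh11 became higher in every MI mouse, and that of Lmod1 was lost under median log-ratio scaling, where Cald1 became higher in every MI mouse.

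**Figure D2:**
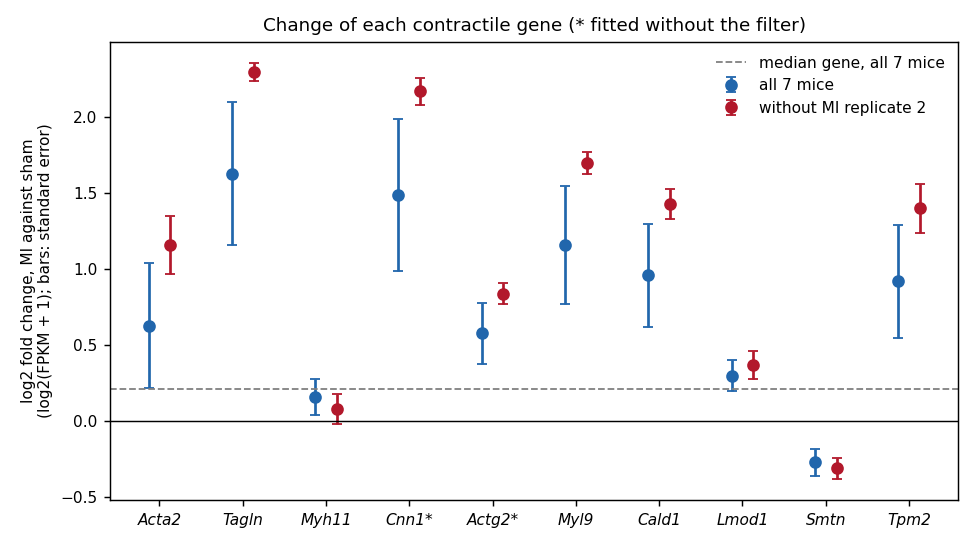
Log2 fold change of each contractile gene, MI against sham, on the log2(FPKM + 1) scale with its standard error, for all 7 mice (blue) and without MI replicate 2 (red), beside the median gene (dashed line, 0.21). Tagln and Cnn1 change most, Smtn is below 0 in both fits, and Myh11 lies at 0.16 and 0.08, a direction that turned under median log-ratio scaling and quantile normalization.

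To ask whether the contractile genes changed by the same amount, the other 9 were set against Myh11, the one most particular to smooth muscle, within each mouse, as the difference of log2(FPKM + 1). The choice of Myh11 was made with earlier results of these data known, and each shift is the change of a gene less that of Myh11, so it is no separate evidence of the change itself. In MI replicates 1 and 3 Tagln stood above Myh11 by 2.85 and 2.79, against 0.47 to 0.69 in the sham-operated mice, while in MI replicate 2 it was at 0.56. Cnn1 lay below Myh11, at -2.40 to -2.02 in the sham-operated mice and -2.36 in MI replicate 2, but was level with it at 0.07 and -0.25 in MI replicates 1 and 3. Over the 3 MI mice the mean shift was 1.47 for Tagln, 1.33 for Cnn1, 1.00 for Myl9, 0.80 for Cald1, 0.76 for Tpm2, 0.47 for Acta2, 0.42 for Actg2 and 0.14 for Lmod1. The groups overlapped for these 8 genes, with an exact permutation p of 0.229 to 0.457 and, adjusted over the 9 comparisons, of 0.367 to 0.457. Smtn was the exception, with every MI mouse below every sham-operated mouse by a mean of -0.43 (exact permutation p = 0.0571, adjusted 0.367). That exact p is the smallest the test can give with so few mice. The test therefore could not show, at 0.05, that any gene changed differently from Myh11. Without MI replicate 2 the shifts were 2.22 for Tagln, 2.09 for Cnn1, 1.62 for Myl9, 1.34 for Cald1, 1.32 for Tpm2, 1.08 for Acta2, 0.76 for Actg2, 0.29 for Lmod1 and -0.39 for Smtn. Without MI replicate 1 the shift was 1.07 for Tagln, 0.88 for Cnn1, 0.71 for Myl9, 0.43 for Cald1 and 0.37 for Tpm2. For Acta2 it was then 0.26, for Actg2 0.21, for Lmod1 0.10 and for Smtn -0.42. Without MI replicate 3, the shift of Acta2 was 0.06 and that of Lmod1 0.02. With a pseudocount of 0.1 in place of 1, the shift was 2.08 for Cnn1, 1.52 for Tagln, 1.21 for Actg2, 1.03 for Myl9 and 0.98 for Cald1. The order of the shifts therefore depends on the pseudocount. In MI replicate 2 itself, where Myh11 had its highest level, all 9 genes were below their sham mean relative to it.

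**Figure D3:**
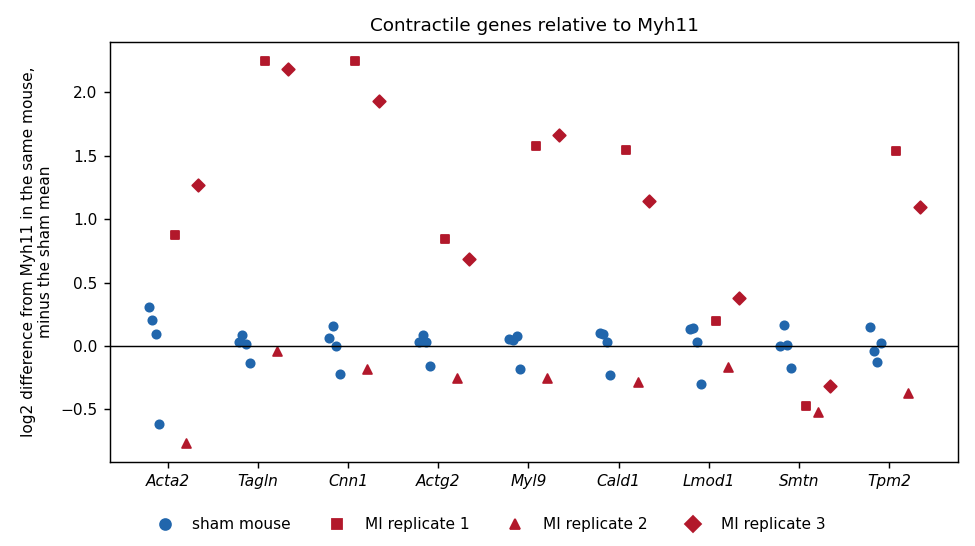
Difference of each contractile gene from Myh11 in the same mouse, on the log2(FPKM + 1) scale, shown relative to the sham mean. In MI replicates 1 and 3 Tagln and Cnn1 lie highest, MI replicate 2, with the highest Myh11, lies below 0 for all 9 genes, and Smtn is below the sham-operated mice in all 3 MI mice.

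The heart also expresses related genes from striated muscle and from the general cytoskeleton, so each contractile gene was expressed as a share of its family's summed FPKM. For 3 families the share was higher in every MI mouse, replicate 2 included, with an exact permutation p of 0.0571 and 0.152 after adjustment over the 8 families. Tagln made up 29.2% ± 1.83 of the transgelins (SD, n = 4) in the sham-operated mice and 41.5%, 37.1% and 44.3% in MI replicates 1, 2 and 3, the rest being almost entirely Tagln2 of the general cytoskeleton. Cnn1 made up 2.71% ± 0.181 of the calponins and 9.42%, 3.84% and 7.78% in the MI mice. Myl9 made up 8.33% ± 0.745 of the regulatory light chains shared by smooth and non-muscle myosin, and 22.8%, 9.28% and 23.1% in the MI mice. For Myl9, MI replicate 2 only just exceeded sham replicate 3, which was at 9.23%. The light chain figure depends on Myl12a and on 2 overlapping identifiers that both carry the symbol Myl12b, whose reads may be divided between them.

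For the other families the groups overlapped. Myh11 held 13.7% ± 1.33 of the myosin II heavy chains outside striated muscle in the sham-operated mice (n = 4), 8.25% and 8.78% in MI replicates 1 and 3, and 16.9% in MI replicate 2 (exact permutation p = 0.343). Its non-muscle paralogs Myh9 and Myh10 had log2 fold changes of 0.76 and 0.81, and Myh14 had one of -0.21. Myh9 and Myh10 were higher past the unadjusted lines, as were 17.8% of all genes. Acta2 was a small part of all actins, 0.96% ± 0.144 in the sham-operated mice and 2.00%, 0.735% and 2.72% in the MI mice, since cardiac Actc1 dominated at 5741 to 7013 FPKM in the sham-operated mice. Tpm2 went from 0.845% ± 0.189 of the tropomyosins to 3.81%, 0.875% and 2.58%, beside a Tpm1 that was lower in every MI mouse (log2 fold change -0.40). Lmod1 remained under 0.5% of the leiomodins in all 7 mice, where cardiac Lmod2 and Lmod3 prevail. Smtn held 91.5% ± 0.911 of the smoothelins and 86.7%, 91.2% and 84.7% in the MI mice.

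**Figure D4:**
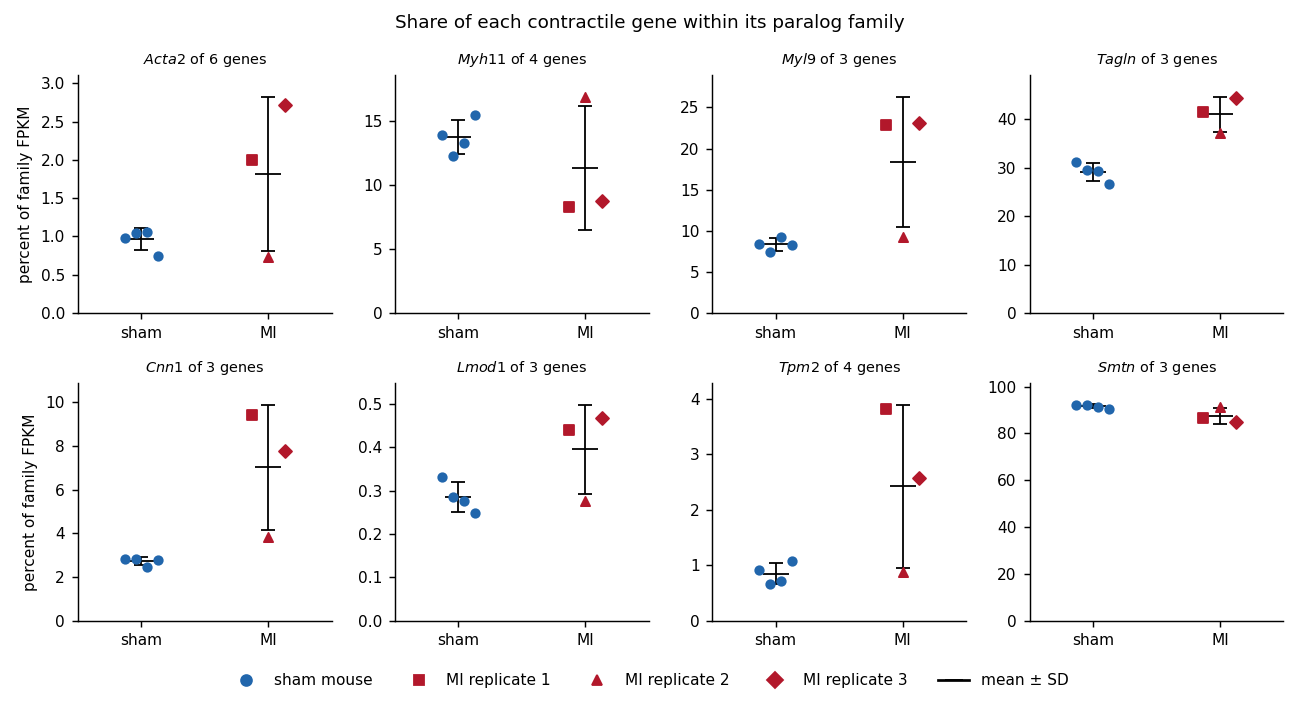
Share of each contractile gene in the summed FPKM of its paralog family, in percent (vertical axes, each from 0), per mouse with group mean and SD. The shares of Myl9, Tagln and Cnn1 are higher in every MI mouse than in every sham-operated mouse, and that of Myh11 is lower in MI replicates 1 and 3 but highest in MI replicate 2.

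Paralogs that serve the general cytoskeleton were examined beside the contractile genes. Cnn2 and Cnn3, the calponins of many cell types, had log2 fold changes of 1.06 and 0.94, and Tpm3 and Tpm4, tropomyosins of the general cytoskeleton, had 0.92 and 0.83. All 4 were past the unadjusted lines, which 17.8% of all genes passed in that direction. Tagln2 (0.96), Actb (0.87) and Actg1 (0.72) did not pass them, with unadjusted p of 0.0549, 0.0803 and 0.121 in limma, and Myl12a had a log2 fold change of 0.01. MI replicate 2 lay within or below the sham range for these 7 calponins, tropomyosins, transgelin and actins. Myl12b (identifier ENSMUSG00000034868) differed in that MI replicate 2 was above the sham range, at 8.74 FPKM against 5.50 to 7.47, and its log2 fold change of 1.03 passed the lines. The other and more abundant identifier of Myl12b (ENSMUSG00000117098) was at 50.5 to 81.9 FPKM in the sham-operated mice and at 52.1, 50 and 57.0 FPKM in the MI mice, so MI replicate 2 was just below the sham range there. Without that mouse the 7 were called higher at an adjusted p under 0.05, as were 57.0% of all genes.

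The remaining contractile apparatus with its kinases and phosphatases was taken as a list of 20 genes, of which 18 were tested. Of these, 6 were higher past the unadjusted lines and 0 lower, against 17.8% and 4.80% of all genes, and the median log2 fold change was 0.40. Without MI replicate 2, 14 were called higher and 2 lower after adjustment, against 57.0% and 14.7%, and the median was 0.57. The largest changes were those of Actn1, α-actinin 1, at 1.54, Csrp1, a LIM-domain protein of smooth muscle, at 0.96, Myl6, the essential light chain, at 0.90 and Tpm4. Mylk, the kinase that phosphorylates Myl9, was at 2.38 to 2.79 FPKM in the sham-operated mice and at 3.98, 3.09 and 3.62 FPKM in MI replicates 1, 2 and 3, above them in every mouse (log2 fold change 0.35, SE 0.10, limma adjusted p = 0.108, and 0.43 without MI replicate 2). The targeting subunits of the opposing phosphatase went different ways, Ppp1r12a higher in every MI mouse (0.47) and Ppp1r12b lower in every MI mouse (-0.41). Mylk and the phosphatase subunits were picked from the list after their values were seen.

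The upstream regulators did not share a direction. Srf itself was at 18.6 to 20.0 FPKM in the sham-operated mice and at 16.9, 17.1 and 21.7 FPKM in MI replicates 1, 2 and 3, with a log2 fold change of -0.06 (limma adjusted p = 0.683), and -0.01 without MI replicate 2. Myocd, the partner of Srf found in cardiac and smooth muscle, was at 2.49, 3.73, 3.95 and 3.15 FPKM in the sham-operated mice and at 1.54, 2.41 and 1.55 FPKM in the MI mice. All MI mice were below all sham-operated mice, with a log2 fold change of -0.61 (SE 0.17, limma adjusted p = 0.108), and -0.75 (adjusted p = 0.00248) without MI replicate 2. Mrtfa, which enters the nucleus when free actin runs low, was at 1.14 to 1.51 FPKM in the sham-operated mice and at 3.63, 1.18 and 2.94 FPKM in the MI mice (log2 fold change 0.59, SE 0.25, limma adjusted p = 0.122, and 0.92, adjusted p = 0.000209, without MI replicate 2). Mrtfb was at 2.82 to 3.56 FPKM in the sham-operated mice and at 5.09, 4.91 and 4.63 FPKM in the MI mice, the latter with replicate 2 as high as the others (log2 fold change 0.49, SE 0.10, limma adjusted p = 0.108, and 0.48, adjusted p = 0.0019, without MI replicate 2).

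Of the 13 regulators tested, 1 (Mrtfa) was higher and 2 (Myocd and Fhl2) lower past the unadjusted lines, against 17.8% and 4.80% of all genes, and the median log2 fold change was 0.22, beside 0.21 for all genes. Fhl2, a LIM-domain cofactor abundant in heart muscle, was at 668.4 to 734.8 FPKM in the sham-operated mice and at 372.6, 620.4 and 461.5 FPKM in the MI mice, a log2 fold change of -0.56, and -0.76 without MI replicate 2. Klf4, a repressor of smooth muscle genes, had a log2 fold change of -0.05. The signal carriers Smad3 (0.47), Tead3 (0.35), Wwtr1 (0.34), Smad7 (0.27), Yap1 (0.22), Elk1 (0.12) and Tead4 (0.08) ranged from 0.08 to 0.47, and Tead1 and Smad2 did not pass the filter. Without MI replicate 2, 8 of the 13 were called higher and 2 lower after adjustment, shares close to the 57.0% and 14.7% of all genes, with a median of 0.34.

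Markers of other cells moved in the same mice as the contractile genes. Of 12 activated fibroblast and myofibroblast markers, 9 passed the filter, of which Cthrc1 and Lox passed through the MI mice alone and so had to differ. Of the other 7, all 7 were higher past the lines and 5 were higher in every MI mouse, against 17.8% and 16.1% of all genes. Their median log2 fold change was 3.37. All 7 were called higher after adjustment without MI replicate 2, against 57.0% of all genes, with a median of 4.49. The summed level of all 12, Cthrc1 and Lox included, was 61.0 to 78.9 FPKM in the sham-operated mice and 2269, 142.6 and 1756 FPKM in MI replicates 1, 2 and 3, so MI replicate 2 was above the sham range here too. Postn and Col1a1, matrix proteins of the healing scar, had log2 fold changes of 4.10 and 3.69. Cthrc1 was at 0.0188 to 0.102 FPKM in the sham-operated mice and at 78.1, 1.40 and 64.5 FPKM in the MI mice, and Lox at 0.381 to 0.586 FPKM and at 52.5, 1.94 and 43.1 FPKM. Of 6 resting fibroblast markers, 3 were higher past the lines, against 17.8% of all genes, and the median was 1.13 (5 called higher after adjustment, against 57.0%, and a median of 1.69 without MI replicate 2), with the largest changes in Dcn (1.50), Tcf21 (1.3), Col15a1 (1.18) and Pdgfra (1.08). Of the 5 macrophage and leukocyte markers tested of 6, all 5 were higher past the lines, against 17.8% of all genes, with a median of 1.51 (all 5 called higher after adjustment, against 57.0%, and a median of 2.20 without MI replicate 2) and changes of 1.75 for Lyz2, 1.58 for Cd68, 1.51 for Adgre1 and 1.03 for Csf1r, and the summed level of all 6 was 112.3 to 149.4 FPKM in the sham-operated mice and 783.7, 136.2 and 680.7 FPKM in the MI mice. Their part in the changes of the contractile genes was not tested.

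Markers of vessel walls moved in both directions. Of 10 mural cell markers, which label smooth muscle cells and pericytes, 1 was higher and 1 lower past the unadjusted lines, against 17.8% and 4.80% of all genes, and the median was 0.16, under that of all genes. Without MI replicate 2, 5 were called higher and 3 lower after adjustment, against 57.0% and 14.7% of all genes, and the median was 0.28. Their summed level was 238.7 to 258.0 FPKM in the sham-operated mice and 235.9, 235.6 and 237.4 FPKM in the MI mice, and none was at 0 in any group. Rgs5, a pericyte gene that made up most of that sum and was picked after its values were seen, was at 131.3 to 146.4 FPKM in the sham-operated mice and at 130.7, 136.9 and 132.2 FPKM in MI replicates 1, 2 and 3. The FPKM of all genes added up to 463838 to 476593 in the sham-operated mice and to 378221, 475030 and 386335 in MI replicates 1, 2 and 3. As parts of that total, the marker sum and Rgs5 were higher in MI replicates 1 and 3 than in any sham-operated mouse. The largest changes in the list were those of Abcc9 (-0.86), Pdgfrb (0.61), Rgs4 (0.47) and Mcam (0.47), and Abcc9, which heart muscle cells express as well, was lower in every MI mouse, as were Kcnj8 and Vtn, which were picked after their values were seen. The 6 endothelial markers had a median of 0.18, none past the lines (4 called higher, against 57.0% of all genes, and a median of 0.31 without MI replicate 2), with Pecam1 at 0.41, Emcn at 0.39, Kdr at -0.20 and Tie1 at 0.19. The 10 cardiomyocyte markers had a median of -0.64 and 7 were lower past the lines, against 4.80% of all genes (all 10 called lower, against 14.7%, and a median of -0.95 without MI replicate 2), led by Tnni3 (-0.93), Atp2a2 (-0.81), Myl2 (-0.75) and Myl3 (-0.65), and their summed level was 15200 to 16450 FPKM in the sham-operated mice and 9712, 15240 and 10330 FPKM in the MI mice.

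**Figure D5:**
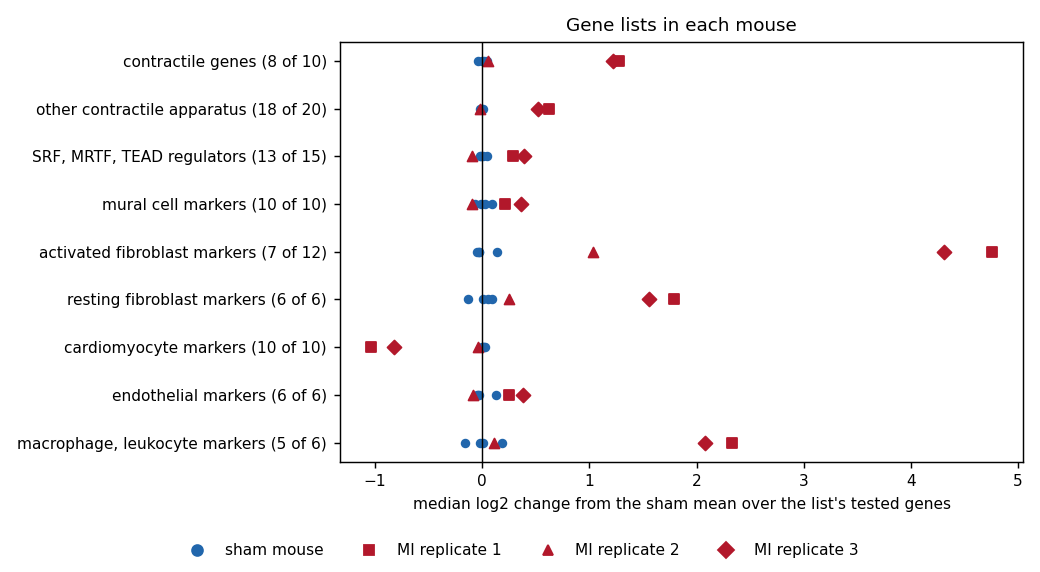
Median log2 change from the sham mean (horizontal axis, log2(FPKM + 1) scale) over the tested genes of each list, for each sham-operated mouse (circles) and each MI mouse (square, triangle and diamond for replicates 1, 2 and 3), with the number tested of the number listed. The contractile genes stand at 1.28, 0.05 and 1.22 in MI replicates 1, 2 and 3, between the mural cell markers at 0.21, -0.10 and 0.36 and the activated fibroblast markers at 4.76, 1.03 and 4.31, where Cthrc1 and Lox are left out because they passed the filter through the MI mice alone.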

How the data were processed

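Bulk RNA-seq libraries from myocardial tissue of 4 sham-operated and 3 MI mice were analysed. Values are FPKM per Ensembl gene, deposited by the authors as 1 table, in which all value columns belonged to these mice (0 unused). The submitters' processing notes name CASAVA 1.8, HISAT2, SAMtools 1.3.1 and the build mm10, and the annotation, counting program and use of strand are not given in the sources used here. Symbols and positions came from GENCODE M21, which held 91.4% of the identifiers, and promoters from RefSeq (GRCm38.p6).

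FPKM was analysed as log2(FPKM + 1), so fold changes of genes near or under 1 FPKM are understated. The 11431 genes that reached 1 FPKM in 3 or more mice were fixed once, on all 7 mice (a choice made after filtering anew within each alternative had been tried), and tested with limma 3.58.1 (lmFit, eBayes with trend) in R 4.3.3, with Benjamini-Hochberg adjustment at 0.05. An unadjusted p of 0.05 with a log2 fold change of 0.5 was a second criterion. Single values were compared by exact two-sided permutation tests (SciPy 1.17.1). The fit was tested on simulated data that gave every mouse the spread of the sham-operated mice, so the wider spread of the MI mice was not covered. Depth came from genes whose FPKM gave whole fragments with their GENCODE exon length (621 of 3764 genes with few fragments, to within 0.2). Fragments of the contractile genes came from the smallest length giving every mouse a fragment number less than 0.05 from whole, and this length equalled the GENCODE exon length only for Lmod1 (for Cald1 it was 23755 against 12041 bases), so they are estimates. Precision is limited by the number of mice and, for Actg2, Cnn1 and Lmod1, by fragments. Alternatives were a pseudocount of 0.1, no filter, TPM rescaling, median log-ratio scaling, quantile normalization, no trend, sample weights, a replicate block and each mouse left out. No filter together with leaving out MI replicate 2, and the separation of groups under TPM and median log-ratio scaling, were added after the data were seen.

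The contractile genes and the lists were chosen with earlier results of these data known. Named were all 10 contractile genes, their paralog families, all regulators and up to 4 genes of each other list with the largest absolute change, and those said to have been picked after their values were seen.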

Additional observations from a re-analysis of the deposited data

Results flagged for a closer look

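In 62 sets of 4 sham-operated values, 3 had a mouse whose gap to its neighbour was a larger part of the range than Dixon's 95% critical value allows, where chance gives about 3.1. The ratio was 0.927 for the FPKM of Myl12b (identifier ENSMUSG00000034868), where sham replicate 3 was lowest at 5.50 FPKM against 7.33 to 7.47. It was 0.910 for the share of Cnn1 among the calponins, where sham replicate 3 was lowest at 2.44% against 2.79% to 2.82%. It was 0.862 for Myl9 relative to Myh11, where sham replicate 4 was lowest at 0.67 against 0.90 to 0.93 on the log2 scale.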

How the results depend on the processing

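Over 16 alternative fits, 128 of 130 log2 fold changes of the contractile genes kept their sign. The differences from Myh11 kept theirs in 72 of 72 cases, over the other pseudocount and each mouse left out (that of Acta2 from 0.06 to 1.08), and the family shares in 56 of 56, over each mouse left out. Myh11 reversed, to -0.05 with median log-ratio scaling and -0.11 with quantile normalization, scalings that remove the shift of the median gene. After TPM rescaling 5 contractile genes were higher past the lines, with a median of 1.01. With median log-ratio scaling 4 were, with a median of 0.56, and with quantile normalization 3, with a median of 0.57. Over all genes, an unadjusted p under 0.05 in limma was reached by 4702 after TPM rescaling, 4425 with median log-ratio scaling and 4304 with quantile normalization. Numbers called over all genes with limma, 2 higher and 1 lower, were small and unsteady: 5 higher with a pseudocount of 0.1, 20 higher without the filter, 0 lower after TPM rescaling, 6 and 2 with median log-ratio scaling, and 10 and 5 with quantile normalization. Sample weights called 7 contractile genes with a median log2 fold change of 1.23, and 7636 genes higher and 2316 lower, but their estimate did not converge and gave MI replicate 3 a weight of 437 against 0.0217 to 1.32 for the others. Leaving out 1 mouse at a time gave 1 to 5 contractile genes higher past the unadjusted lines, 0 to 7 at an adjusted p under 0.05, a median of 0.52 to 1.28, and 0 to 6512 genes higher and 0 to 1683 lower. The upper ends came from leaving out MI replicate 2, and the lower end of 1 from leaving out MI replicate 1 or 3. With neither the filter nor MI replicate 2, 7 contractile genes passed the unadjusted lines and 9 the adjusted p, with a median of 1.28, and 10889 genes were higher and 1797 lower. The cause of these differences was not tested beyond the choice of mice and genes itself.

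With the replicate block, the median of the contractile genes was 0.72 and 4 were higher past the unadjusted lines, and limma called 0 genes in either direction (0 higher, 0 lower) after adjustment, with 2332 at an unadjusted p under 0.05. Deviations of same-numbered mice correlated at 0.07, -0.02 and -0.08 for numbers 1 to 3. Because MI replicate 2 differed so widely from replicates 1 and 3, these values could not decide whether same-numbered mice shared a batch. The labels do not say that a number marks one.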
